A study of Homo sapiens with 12 samples.

Results

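The mevalonate pathway to squalene was followed through 9 genes, in the order of their reactions ACAT2, HMGCS1, MVK, PMVK, MVD, IDI1, FDPS, GGPS1 and FDFT1. They were found by gene symbol and joined by gene identifier, and each of the 9 was present once among the 60630 genes that both expression tables hold. RNA was sequenced from SZ95 sebocytes, an immortalised cell line from the human sebaceous gland, in 12 libraries of 3 per group. The groups were cells given LA, LA and RVT, PGN, or PGN and RVT. The series title names RVT as resveratrol, a plant polyphenol. The labels leave LA and PGN as abbreviations, taken here to mean linoleic acid and bacterial peptidoglycan. All libraries come from 1 cell line, dose and time of treatment are not known here, and no untreated group is among the labels. The effect of either stimulus alone therefore cannot be read. The design text calls the replicates biological without saying whether they were separate cultures, so a p-value reflects only how far these libraries differ, which may be technical.

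The mevalonate pathway builds isoprenoid units from acetyl-CoA. ACAT2 and HMGCS1 make HMG-CoA, which is reduced to mevalonate, and MVK, PMVK and MVD turn mevalonate into isopentenyl diphosphate. IDI1 isomerises this unit, FDPS joins units into farnesyl diphosphate, and FDFT1 commits farnesyl diphosphate to squalene, while GGPS1 lengthens it for protein prenylation and other uses. In most cells squalene is converted to cholesterol, but sebaceous gland cells store and secrete it as a main lipid of human sebum. Transcription of the pathway is known to be driven by the sterol-regulated factor SREBP2, which acts together with NF-Y and Sp1 at many of these promoters.

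With PGN as the stimulus, RVT was accompanied by higher expression along most of the pathway, and with LA it was not. Of the 9 genes, 7 rose with RVT in the PGN libraries (limma, adjusted p under 0.05) and 0 fell, where 10.6% of all 14622 genes tested rose and 4.92% fell. In the LA libraries 2 rose and 0 fell, where 10.7% of all 15409 genes tested rose and 5.07% fell. All 9 passed the filter on low values in both arms. In the PGN arm the RVT libraries of 7 members lay above all others, beside 24.7% of all genes tested. The median log2 fold change of the 9 genes was 0.56 in the PGN arm (PGN with RVT against PGN), beside 0.064 over all genes tested. In the LA arm (LA with RVT against LA) it was 0.059, beside 0.036 over all genes tested. Expression is in TPM, a share of the library scaled to transcript length, and changes are differences of log2(TPM + 1), given with the standard error (SE) of the fit. Because TPM are rescaled, the read depth behind each value is unknown. In a bulk measurement, fewer expressing cells and less RNA per cell cannot be told apart.

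The sum of the 9 genes' TPM gives a single view of the pathway. With PGN the sums were 739, 753 and 784 TPM, and with PGN and RVT 1120.4, 1157 and 1191 TPM. Every PGN library with RVT lay above every PGN library without it. With LA the sums were 1033, 1010.35 and 1047 TPM, and with LA and RVT 1072, 1065 and 1074 TPM. These ranges also did not overlap, but they lay far closer together. The group means were 759 ± 22.9 and 1156 ± 35.4 TPM in the PGN arm and 1030.1 ± 18.3 and 1070.2 ± 4.24 TPM in the LA arm (SD, n = 3 per group). The 2 stimuli were deposited in separate tables whose gene names differ for 1432 shared genes, so levels under LA and PGN stand side by side here and were not tested against each other.

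**Figure D1:**
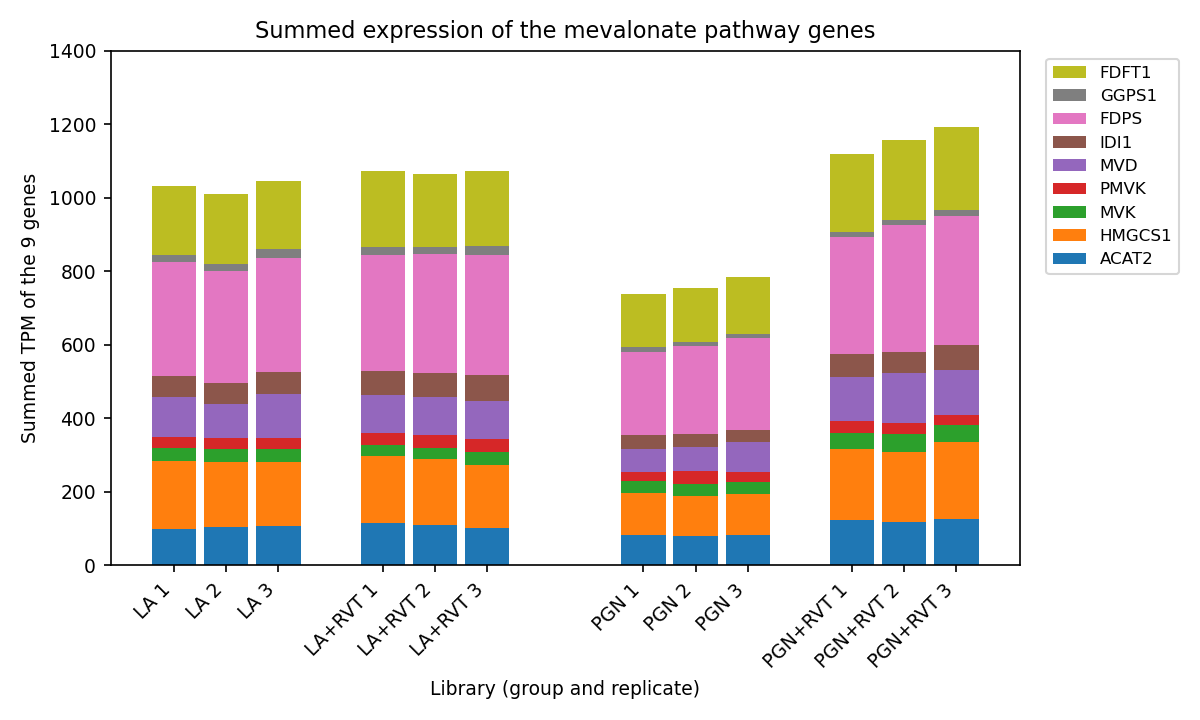
Summed TPM (vertical axis) of the 9 pathway genes in each of the 12 libraries (horizontal axis), with 1 colour per gene. The PGN bars without RVT reach 739 to 784 TPM and the PGN bars with RVT 1120.4 to 1191 TPM, while the 6 LA bars span 1010.35 to 1074 TPM.

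The promoter sequences nearest to the annotated gene starts are shown for the genes where such a stretch was available. Each is the longest stretch before the RefSeq start, within a RefSeq window on GRCh38.p14, that GENCODE 29 does not annotate as exon. RefSeq windows were matched for 7 of the 9 genes (none was matched for ACAT2 and none was used for FDFT1). Those of MVK and PMVK held no such stretch. Every sequence is printed 5′ to 3′ on the gene's own strand. Capitals mark CCAAT, the box bound by NF-Y, read on either strand. HMGCS1 is shown at chr5:43313513-43313662 on the minus strand, MVD at chr16:88663162-88663297 on the minus strand and IDI1 at chr10:1049171-1049369 on the minus strand. FDPS is shown at chr1:155308616-155308747 on the plus strand and GGPS1, which was not called, at chr1:235326969-235327159 on the plus strand.
HMGCS1: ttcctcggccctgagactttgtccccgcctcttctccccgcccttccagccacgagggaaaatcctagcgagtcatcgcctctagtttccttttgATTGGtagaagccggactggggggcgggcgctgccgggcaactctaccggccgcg
MVD: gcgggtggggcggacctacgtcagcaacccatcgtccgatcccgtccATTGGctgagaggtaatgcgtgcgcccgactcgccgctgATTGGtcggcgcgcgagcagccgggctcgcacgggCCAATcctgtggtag
IDI1: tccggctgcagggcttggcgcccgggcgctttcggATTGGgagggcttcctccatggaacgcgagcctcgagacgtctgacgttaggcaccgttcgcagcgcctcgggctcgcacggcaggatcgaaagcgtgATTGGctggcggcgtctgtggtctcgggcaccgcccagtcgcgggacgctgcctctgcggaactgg
FDPS: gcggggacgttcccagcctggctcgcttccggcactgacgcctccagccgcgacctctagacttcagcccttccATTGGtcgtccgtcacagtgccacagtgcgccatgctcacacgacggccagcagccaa
GGPS1: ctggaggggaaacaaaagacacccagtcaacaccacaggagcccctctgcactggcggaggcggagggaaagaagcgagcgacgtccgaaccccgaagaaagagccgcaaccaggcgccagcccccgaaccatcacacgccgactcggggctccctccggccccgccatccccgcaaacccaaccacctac
In the stretch shown, MVD carried 3 boxes, IDI1 2, HMGCS1 1, FDPS 1 and GGPS1 0. Over the full window of 250 bases before to 50 bases after the start, CCAAT was matched 5 times for MVK, 3 times for MVD, 3 times for FDPS, 2 times for HMGCS1 and 2 times for IDI1. It was matched 0 times for PMVK and 0 times for GGPS1, again in the window nearest to the gene start. The nearest windows of MVK and PMVK lay wholly inside the genes as GENCODE 29 bounds them. Sequence before those gene starts was therefore not searched for MVK and PMVK. Windows at other annotated starts held 0 matches for HMGCS1, 3 and 0 for IDI1 and 1 and 0 for GGPS1. Among all 35116 windows of this length, 34.6% held at least 1 CCAAT and 10.8% held 2 or more. The Sp1 box GGGCGG, found in 45% of all windows, was matched in the nearest windows of HMGCS1, MVK, PMVK, MVD, IDI1 and FDPS. It had 0 matches in the nearest GGPS1 window and 2 in each of the windows at the other GGPS1 starts. A sterol regulatory element written as TCACNCCAC (1.13% of all windows) and the E-box CACGTG (7.26%) were matched in none of the windows of these genes, on either strand. Such matches describe the letters of the window and do not show binding. Their part in the changes with RVT was not tested.

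The first steps, which make HMG-CoA, both rose with RVT in the PGN arm. HMGCS1 (ENSG00000112972, chromosome 5, 43289395 to 43313512 on GRCh38), the HMG-CoA synthase of the cytosol, stood at 114, 109 and 113 TPM with PGN and at 195, 192 and 208 TPM with PGN and RVT. The 3 libraries with RVT lay well above the 3 without. Its log2 fold change was 0.82 ± 0.047 (SE), a mean 77.1% higher (limma adjusted p = 0.000153). With LA the values were 183, 177 and 176 TPM without and 182, 179 and 171 TPM with RVT, which overlapped. The log2 fold change there was -0.011, with a 95% interval of -0.092 to 0.069 (limma adjusted p = 0.860), which leaves out a change of the size seen with PGN. ACAT2 (ENSG00000120437, chromosome 6, 159760328 to 159779055), the cytosolic thiolase that joins acetyl-CoA units, stood at 82.7, 80.7 and 81.9 TPM with PGN and at 123, 118 and 127 TPM with PGN and RVT. Again no library with RVT came near one without. Its log2 fold change was 0.58 ± 0.045 (limma adjusted p = 0.000473). ACAT2 with LA read 100.4, 103 and 106 TPM without and 115, 111 and 103 TPM with RVT, with overlapping groups (log2 fold change 0.085, limma adjusted p = 0.280). The exons of ACAT2 overlap those of the opposite-strand chaperonin gene TCP1 over 397 of 4299 exonic bases, and the use of strand in counting is not known here. TCP1 stood at 302 ± 5.81 TPM with PGN and 297 ± 3.95 TPM with PGN and RVT, so it did not move with ACAT2 (limma adjusted p = 0.713). TCP1 rose in the LA arm, from 247 ± 7.56 to 283 ± 3.06 TPM (limma adjusted p = 0.00669).

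**Figure D2:**
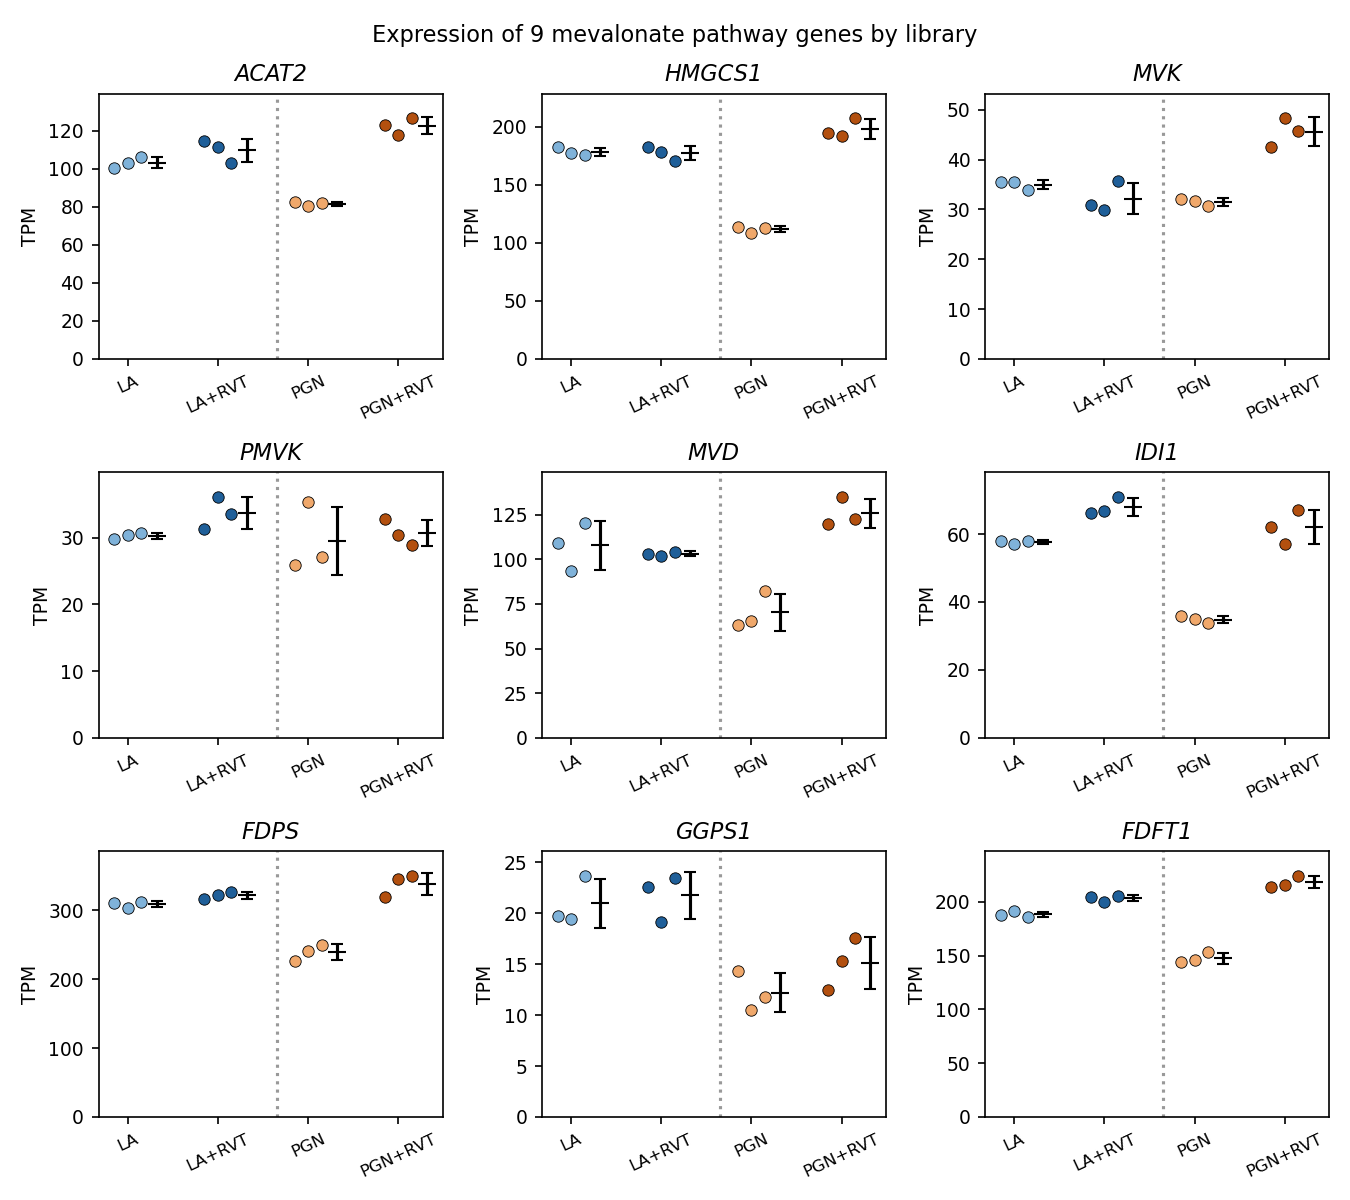
TPM (vertical axes, from 0) of each gene in every library (points), by group, with the mean ± SD (n = 3) as a bar beside the points; the dotted line separates the LA table from the PGN table. HMGCS1 lies at 109 to 114 TPM with PGN and 192 to 208 TPM with PGN and RVT, while the PMVK and GGPS1 groups overlap in the PGN arm.

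Of the 3 enzymes that turn mevalonate into isopentenyl diphosphate, the first and the last rose with RVT in the PGN arm and the middle one was not called. MVK (ENSG00000110921, chromosome 12, 109573255 to 109598117), mevalonate kinase, stood at 32.2, 31.6 and 30.7 TPM with PGN and at 42.6, 48.4 and 45.7 TPM with PGN and RVT. Its groups did not overlap, and its log2 fold change was 0.52 ± 0.062 (limma adjusted p = 0.00273). MVK with LA read 35.6, 35.5 and 33.9 TPM without and 30.9, 29.9 and 35.7 TPM with RVT. There, 2 of 3 libraries with RVT were the lowest and 1 was the highest (log2 fold change -0.12, limma adjusted p = 0.307). MVD (ENSG00000167508, chromosome 16, 88651935 to 88663161), the decarboxylase that yields isopentenyl diphosphate, stood at 63.4, 65.5 and 82.2 TPM with PGN and at 119.5, 135 and 123 TPM with PGN and RVT. Its spread was wider than that of HMGCS1, but all RVT libraries were above all others. MVD had the largest estimate of the 9 genes in the PGN arm, a log2 fold change of 0.84 ± 0.10 (limma adjusted p = 0.00288), close to those of HMGCS1 and IDI1 and within their intervals. MVD with LA read 109, 93.4 and 120.5 TPM without and 103, 102 and 104 TPM with RVT (log2 fold change -0.056, limma adjusted p = 0.711).

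PMVK (ENSG00000163344, chromosome 1, 154924734 to 154936991), phosphomevalonate kinase, stood at 25.9, 35.3 and 27.2 TPM with PGN and at 32.8, 30.4 and 28.9 TPM with PGN and RVT. The groups overlapped, with the second PGN library the highest of the 6. Its log2 fold change was 0.069, with a 95% interval of -0.21 to 0.35 (limma adjusted p = 0.735). The upper end of that interval lay below the log2 fold change of every called member, the lowest of which was 0.50 for FDPS. The ratio of PMVK to HMGCS1 was 0.264 ± 0.0532 with PGN and 0.155 ± 0.0149 with PGN and RVT (SD, n = 3). The ratios did not overlap, and the exact two-sided permutation p was 0.10, the smallest that 3 against 3 allows (adjusted p = 0.30 over 6 ratio tests, which were chosen after the values were seen). PMVK with LA read 29.8, 30.3 and 30.7 TPM without and 31.3, 36.1 and 33.6 TPM with RVT. These groups did not overlap, but the difference was not called (log2 fold change 0.15, limma adjusted p = 0.151). In that arm 4 of 9 members had all RVT libraries above all others, beside 23.4% of all genes tested.

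The isomerase and the farnesyl diphosphate synthase rose with RVT in the PGN arm. IDI1 (ENSG00000067064, chromosome 10, 1039152 to 1049170) stood at 35.8, 34.9 and 33.7 TPM with PGN and at 61.9, 57.1 and 67.0 TPM with PGN and RVT. The 3 values without RVT lay close to each other and far below the rest. The log2 fold change was 0.81 ± 0.069 (limma adjusted p = 0.000664). IDI1 also rose in the LA arm, from 57.8, 57.0 and 58.1 TPM to 66.2, 66.8 and 71.0 TPM (log2 fold change 0.23 ± 0.040, limma adjusted p = 0.0105). This was the member whose rise in the LA arm was called under all 16 alternatives. Its near relative IDI2 was listed at 0 in all 12 libraries. FDPS (ENSG00000160752, chromosome 1, 155308748 to 155320666) stood at 227, 241 and 249.8 TPM with PGN and at 319.5, 345 and 350.1 TPM with PGN and RVT. It had the highest level of the 9 in every group, and its PGN groups did not overlap (log2 fold change 0.50 ± 0.053, limma adjusted p = 0.00160). FDPS with LA read 310.2, 303 and 312 TPM without and 316, 322 and 326 TPM with RVT, also without overlap but not called (log2 fold change 0.059, limma adjusted p = 0.158). The 11 genes named as pseudogenes of FDPS or IDI1 reached at most 1.52 TPM in a library.

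At the branch after farnesyl diphosphate, the gene leading to squalene rose in the PGN arm and the gene leading to geranylgeranyl diphosphate was not called. FDFT1 (ENSG00000079459, chromosome 8), squalene synthase, stood at 144, 146 and 153 TPM with PGN and at 214, 216 and 224 TPM with PGN and RVT. All RVT libraries were higher, and the replicates lay close together (log2 fold change 0.56 ± 0.043, limma adjusted p = 0.000473). FDFT1 with LA read 188, 191 and 186 TPM without and 205, 200.1 and 205 TPM with RVT. This small rise had a log2 fold change of 0.11 ± 0.025 (limma adjusted p = 0.0304). The call was lost under 11 of 16 alternatives, among them the omission of any 1 of the 6 libraries, with adjusted p-values of 0.0259 to 0.380 over all 16. GGPS1 (ENSG00000152904, chromosome 1, 235327350 to 235344532), the lowest of the 9 in every group, stood at 14.4, 10.5 and 11.8 TPM with PGN and at 12.4, 15.3 and 17.5 TPM with PGN and RVT. The groups overlapped, and the log2 fold change was 0.28 with a 95% interval of -0.066 to 0.63 (limma adjusted p = 0.247). That interval holds both 0 and the estimate for FDFT1, so a rise like that of FDFT1 could not be told from no change. The ratio of FDFT1 to GGPS1 was 12.3 ± 2.02 with PGN and 14.7 ± 2.26 with PGN and RVT (exact two-sided permutation p = 0.30, n = 3 per group, adjusted p = 0.36 over 6 ratio tests). GGPS1 shares 1422 of its 3809 exonic bases with the tubulin chaperone gene TBCE on the same strand, and its values are uncertain to that extent. GGPS1 with LA read 19.8, 19.4 and 23.7 TPM without and 22.6, 19.2 and 23.5 TPM with RVT (limma adjusted p = 0.788).

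**Figure D3:**
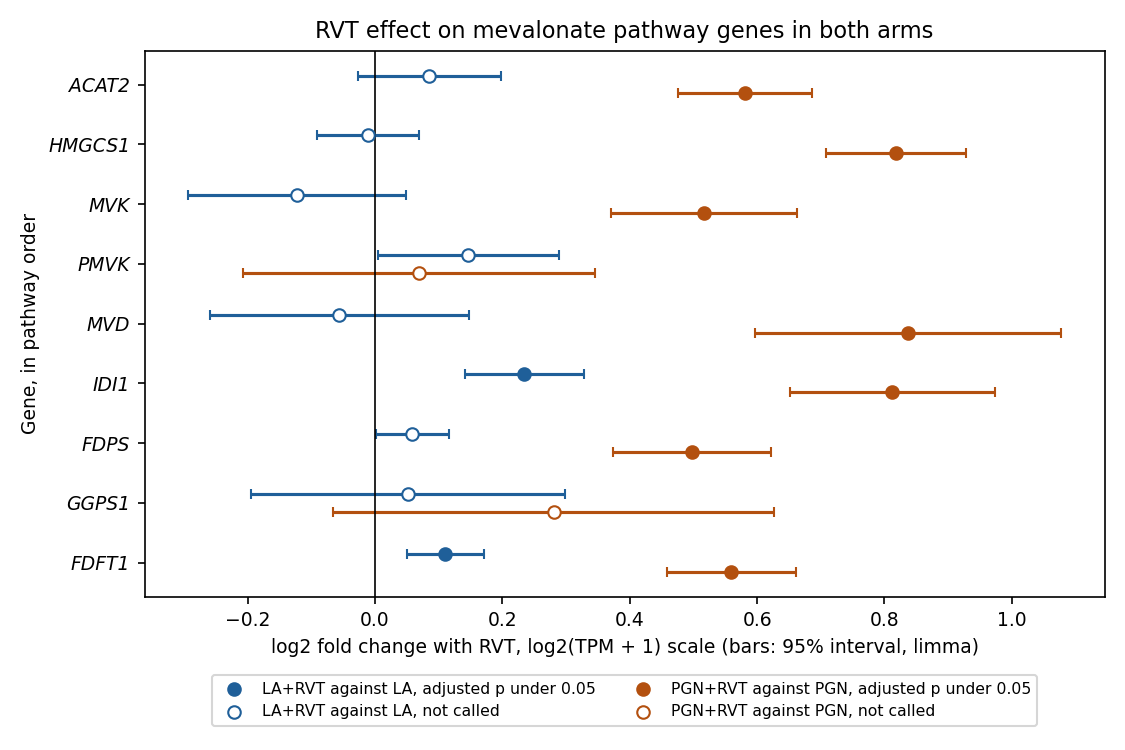
Log2 fold change with RVT (horizontal axis) of the 9 genes in pathway order (vertical axis) in the LA arm (blue) and the PGN arm (orange), with 95% intervals of the limma fit; filled points have an adjusted p under 0.05. The 7 filled orange points lie between 0.50 and 0.84, and the 2 filled blue points are FDFT1 at 0.11 and IDI1 at 0.23.

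The RVT effects in the 2 arms were compared in a single fit on 12 libraries. For 7 of the 9 genes the log2 fold change was larger with PGN than with LA (limma, adjusted p under 0.05), and for 0 it was smaller, where 7.73% of all 15177 genes tested had a larger and 7.03% a smaller one. HMGCS1 differed by 0.83 ± 0.056 (limma adjusted p = 6.55e-06) and FDFT1 by 0.45 ± 0.047 (limma adjusted p = 0.000108). MVD, at 0.89 ± 0.15, had the largest estimate (limma adjusted p = 0.00209). MVK, whose estimates had opposite signs in the 2 arms, differed by 0.64 ± 0.096 (limma adjusted p = 0.00129), although its value in the LA arm was not called. IDI1, which rose in both arms, differed by 0.58 ± 0.079, ACAT2 by 0.50 ± 0.064 and FDPS by 0.44 ± 0.059, with limma adjusted p-values of 0.000738, 0.000483 and 0.000661. For PMVK the difference was -0.077 (95% interval -0.39 to 0.23) and for GGPS1 0.23 (95% interval -0.20 to 0.66), and neither was called.

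Set side by side across the tables, and untested, the PGN group without RVT had the lowest mean of the 4 groups for all 9 genes. HMGCS1 averaged 112 ± 2.86 TPM with PGN, beside 179 ± 3.60 with LA, 177 ± 5.96 with LA and RVT and 198 ± 8.68 with PGN and RVT. IDI1 averaged 34.8 ± 1.08 TPM with PGN, beside 57.6 ± 0.572, 68.0 ± 2.61 and 62.0 ± 4.98 in the same order. PMVK had means of 29.5 ± 5.11 TPM with PGN, 30.3 ± 0.466 with LA, 33.7 ± 2.41 with LA and RVT and 30.7 ± 1.94 with PGN and RVT. The order of the genes by level was nearly the same in every group. FDPS, FDFT1 and HMGCS1 came first, with ranges that did not overlap between neighbours, and GGPS1 came last. ACAT2 and MVD, in the fourth and the fifth place, overlapped in every group and changed places between groups. MVK and PMVK, in the seventh and the eighth place, overlapped with LA and RVT and with PGN. FDPS made up 31.5% ± 0.700 of the summed TPM with PGN and 29.2% ± 0.651 with PGN and RVT. The ratio of FDPS to HMGCS1 was 2.14 ± 0.128 with PGN and 1.71 ± 0.0803 with PGN and RVT, without overlap (exact two-sided permutation p = 0.10, n = 3 per group, the smallest possible, adjusted p = 0.30 over 6 ratio tests).

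Genes that handle the products and the regulation of the pathway were read from 4 further lists. From squalene to cholesterol, 11 of 12 tested genes rose in the PGN arm and 0 fell (median log2 fold change 0.60), and 3 rose and 0 fell in the LA arm (0.11). For these lists too, the shares over all genes tested were 10.6% higher and 4.92% lower in the PGN arm (median 0.064) and 10.7% higher and 5.07% lower in the LA arm (median 0.036). The sterol reductase gene TM7SF2 rose from 15.1 ± 1.97 to 31.3 ± 0.779 TPM in the PGN arm (log2 fold change 1.01 ± 0.093, limma adjusted p = 0.000948). MSMO1, a sterol demethylation enzyme, rose from 44.1 ± 4.63 to 86.2 ± 3.29 TPM, and DHCR7, which makes cholesterol from its direct precursor, from 102 ± 8.08 to 177 ± 6.09 TPM (limma adjusted p = 0.000579 and 0.000529). CYP51A1, the lanosterol demethylase, rose in both arms, with log2 fold changes of 0.73 ± 0.076 with PGN and 0.32 ± 0.039 with LA. The exception in the PGN arm was LBR, which has a second role as a lamin receptor, at 47.4 ± 8.20 and 41.2 ± 3.92 TPM (limma adjusted p = 0.352); it is named here after its value was seen.

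Among genes of sterol sensing and uptake, 8 of 11 tested rose in the PGN arm and 0 fell (median log2 fold change 0.38). With LA, 1 rose and 2 fell (median 0.028), beside 10.7% and 5.07% of all genes tested, so the share that rose was near the background. The 8 calls dropped to 5 without a filter on low values and to 4, 5, 3, 5 and 4 without PGN replicates 2 and 3 and PGN with RVT replicates 1, 2 and 3, and the 3 calls in the LA arm to 0 or 1 without any 1 of its 6 libraries. INSIG1, which retains the SREBP escort protein when sterols are plentiful, rose from 33.8 ± 3.73 to 61.6 ± 2.43 TPM in the PGN arm (log2 fold change 0.85 ± 0.084, limma adjusted p = 0.00124). SREBF2, which encodes SREBP2, rose from 68.9 ± 3.83 to 84.7 ± 0.556 TPM (log2 fold change 0.29 ± 0.053, limma adjusted p = 0.0119). The SREBF2 call was lost without PGN with RVT replicate 1 (limma adjusted p = 0.0531) and with library medians equalised (0.0539).

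Of the genes supplying acetyl-CoA or encoding mitochondrial relatives, 3 of 5 tested rose in the PGN arm and 0 fell, beside 10.6% and 4.92% of all genes tested. ACSS2, which makes acetyl-CoA from acetate, rose from 62.9 ± 1.97 to 91.9 ± 2.45 TPM and ACLY, which makes it from citrate, from 115 ± 3.50 to 156 ± 6.20 TPM (limma adjusted p = 0.000796 and 0.00168). The mitochondrial citrate carrier gene SLC25A1 stood at 49.4 ± 4.35 and 57.9 ± 4.28 TPM (limma adjusted p = 0.115). Of these 5, ACLY alone was called in the LA arm (1 higher, 0 lower). Of 11 genes that use isoprenoids for dolichol, ubiquinone or protein prenylation, 0 rose and 0 fell in the PGN arm (limma adjusted p under 0.05, beside 10.6% and 4.92% of all genes tested), and 2, DHDDS and RABGGTA, had an unadjusted p under 0.05. The ubiquinone gene COQ2 stood there at 24.1 ± 3.51 and 22.2 ± 0.742 TPM (limma adjusted p = 0.534). With LA, 2 of the 11 rose and 0 fell, a share near the 10.7% of all genes tested that rose. COQ2 went from 21.2 ± 0.910 to 27.6 ± 1.61 TPM (limma adjusted p = 0.0105), and RABGGTB, a subunit of the Rab geranylgeranyl transferase, from 74.4 ± 6.66 to 92.9 ± 3.08 TPM (limma adjusted p = 0.0223). The RABGGTB call was lost without LA replicate 3, without LA with RVT replicates 1 or 3, without a filter on low values, with quantile normalization, with constant prior variance and with the replicate block (limma adjusted p of 0.0542 to 0.0687 in these fits).

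**Figure D4:**
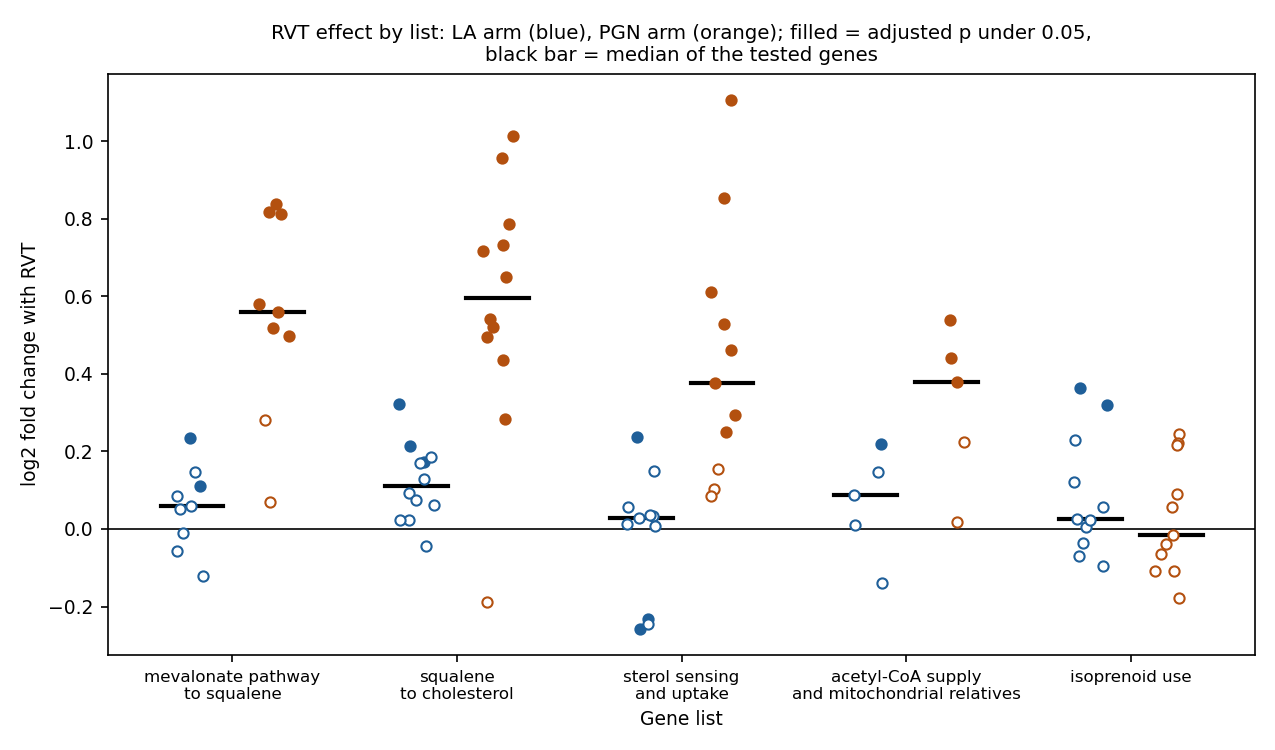
Log2 fold change with RVT (vertical axis) of each tested gene in the 5 lists (horizontal axis), with the LA arm in blue, the PGN arm in orange, filled points for an adjusted p under 0.05 and a black bar for the median. The orange medians are 0.56, 0.60, 0.38 and 0.38 in the first 4 lists and -0.015 for isoprenoid use.

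The genes outside the pathway whose values over the 12 libraries lay nearest to the mean profile of the 9 were found by the root mean square difference of log2(TPM + 1), centred within each table, among genes of at least 5 TPM in both. PRSS8, a membrane-anchored serine protease of epithelia, was nearest (0.0330) and rose from 63.5 ± 2.17 to 92.0 ± 2.86 TPM in the PGN arm. The next were SEMA3F, KDM5B, MARCKSL1, VPS18, SV2A, HLA-E and SP6, with differences of 0.0439 to 0.0511 and log2 fold changes of 0.46 to 0.56 in the PGN arm. As all 8 were chosen for lying near a profile that rises there, their own rise follows from the choice. None of these 8 is in the 4 lists above. Among the members themselves, FDFT1 (0.0345) and FDPS (0.0354) lay nearest to the mean profile and PMVK (0.212) farthest, with 5575 of 10530 genes nearer than PMVK. Each member is part of that mean profile, which draws its distance down, while outside genes have no such part in it.

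**Figure D5:**
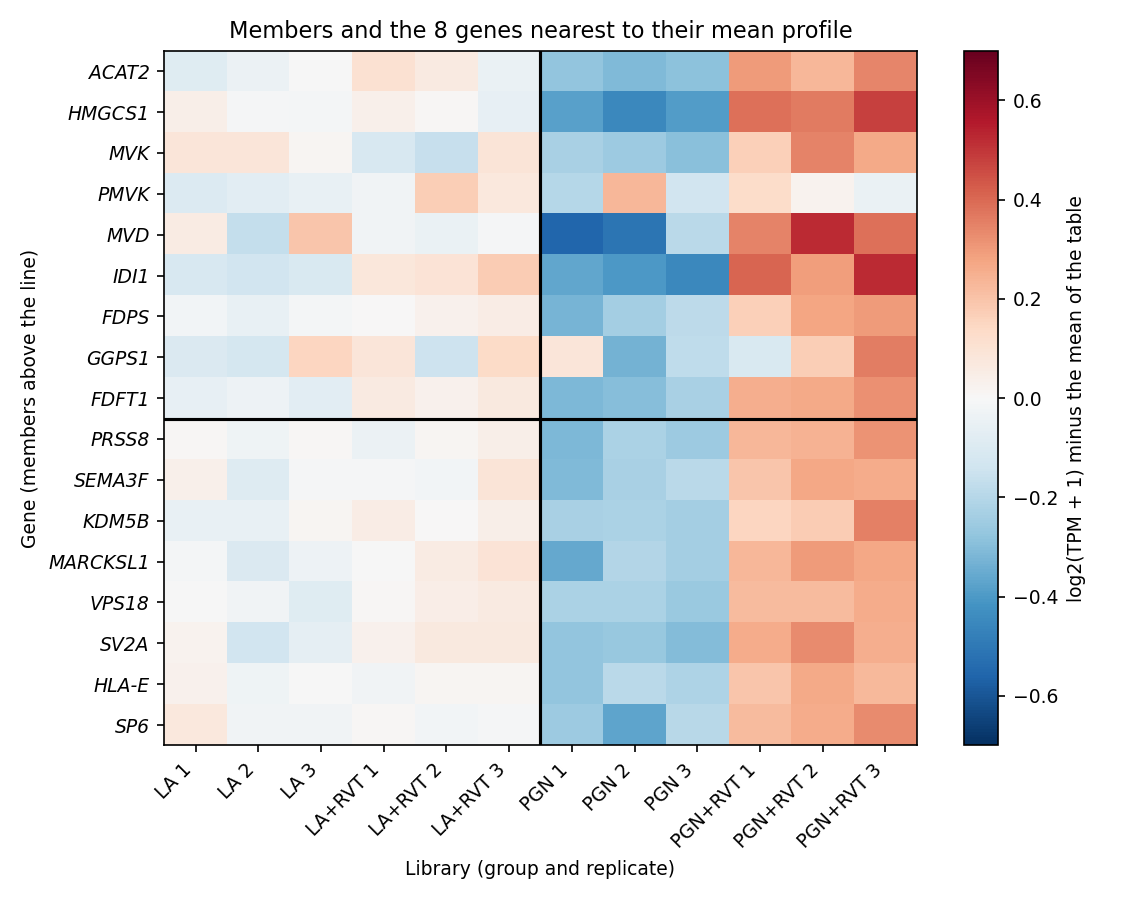
Log2(TPM + 1) minus the mean of its own table (colour scale) for the 9 members and the 8 genes nearest to their mean profile (rows) in 12 libraries (columns). The members other than PMVK and GGPS1 are blue in all PGN libraries and red in all PGN with RVT libraries. Most cells of the 6 LA columns on the left are paler. Some, such as MVD in LA 3 (0.20) and IDI1 in LA with RVT 3 (0.18), are as strong as the weakest of those PGN cells.

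No pair of libraries held identical values. Mitochondrially encoded and ribosomal protein genes were chosen by names that begin with MT-, or with RPL or RPS and a digit. A choice by name can miss some of these genes and take in others. The genes so chosen took 28.0% to 28.3% of TPM with LA, 25.6% to 25.9% with LA and RVT, 27.0% to 27.3% with PGN and 25.4% to 26.0% with PGN and RVT. With these genes removed and the libraries rescaled, the same number of members, 7, was called in the PGN arm and 1, IDI1, in the LA arm. Of all genes called, 1645 were higher and 781 lower in the LA arm and 1557 and 720 in the PGN arm. With library medians equalised these were 1041 and 1080 in the LA arm and 850 and 1020 in the PGN arm. Of 15 sebocyte and epithelial markers, 13 reached 1 TPM in every group, while AWAT2 and MC5R, markers of mature sebocytes, were listed at 0 throughout. Their sum spanned 5797 to 5885 TPM with LA, 6791 to 6872 TPM with LA and RVT, 8336 to 8471 TPM with PGN and 8640.3 to 8715 TPM with PGN and RVT. KRT7, KRT8 and KRT18 made up most of that sum, and single markers moved both ways, with 4 higher and 2 lower of 13 tested in each arm. In the PGN arm the 4 called higher were FADS2, FASN, SCD and CDH1. Their log2 fold changes were 1.07 ± 0.084, 0.67 ± 0.084, 0.46 ± 0.067 and 0.34 ± 0.044 (SE). Their limma adjusted p-values were 0.000499, 0.00307, 0.00561 and 0.00343. The 2 called lower there were PPARG and KRT5. PPARG, a nuclear receptor of sebocyte differentiation, fell from 38.7 ± 0.832 to 23.1 ± 0.864 TPM (limma adjusted p = 0.000473). The basal keratin KRT5 fell from 440.4 ± 11.0 to 357 ± 3.71 TPM (limma adjusted p = 0.00206). All of these are named after their values were seen. Of other cell types, 2 of 7 fibroblast, 2 of 7 immune, 2 of 6 melanocyte and 1 of 4 endothelial markers reached 1 TPM. The summed fibroblast markers spanned 10.2 to 16.3 TPM with PGN and 12.02 to 15.1 TPM with PGN and RVT. The immune sum moved with the members in the PGN arm, from 33.7 to 37.1 TPM to 52.2 to 53.6 TPM, mainly through the lysosomal gene CD68 at 32.4 ± 1.305 and 49.7 ± 0.805 TPM (SD, n = 3). PTPRC, which defines leukocytes, averaged at most 0.207 TPM in a group. The melanocyte sum went from 19.4 to 24.4 TPM to 29.8 to 31.1 TPM with TYR listed at 0, and the endothelial sum from 24.8 to 26.5 TPM to 23.4 to 24.1 TPM. In the LA arm the sums without and with RVT were 10.2 to 15.8 and 12.8 to 15.6 TPM for fibroblast, 47.9 to 51.4 and 54.6 to 58.2 TPM for immune, 25.1 to 26.0 and 29.6 to 32.3 TPM for melanocyte and 17.5 to 17.9 and 7.22 to 8.10 TPM for endothelial markers. The part of these markers in the results was not tested.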

How the data were processed

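RNA of 12 libraries was sequenced, and the authors deposited 1 table of TPM per stimulus, read as TPM from columns that sum to between 994373 and 997060. The tools listed per the submitters' processing notes are RSEM 1.3.1, HISAT2 2.1.0 and DESeq2 1.24.0, on GRCh38.p13, without their roles. Annotation and use of strand are not given in the sources used here. Groups and replicate numbers came from the sample titles. The values were analysed as log2(TPM + 1) where the mean reached 1 TPM, using limma 3.58.1 (R 4.3.3, two-sided, prior variance with a trend, Benjamini-Hochberg over all genes tested, threshold 0.05). Each arm was fitted on its 6 libraries, and the difference on 12 with 1 mean per group. The fits were also run on data simulated with independent noise. Such data cannot show what technical replicates or shared scaling do to the calls. TPM are shares, so a gene can gain because others lose. The members and lists were chosen with earlier results of these data known, and counts of list members are descriptions without a list test. Named genes are the 9 members, up to 4 genes per further list with the smallest p in either arm, and the 8 nearest profiles. A few genes that this rule names are not reported here. Alternatives covered pseudocount, filter, scaling, prior variance, the replicate block, a fit on all libraries and leaving out each library. Positions came from GENCODE 29 on GRCh38 and promoters from RefSeq on GRCh38.p14.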

Additional observations from a re-analysis of the deposited data

Results flagged for a closer look

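The effect of RVT differed between the PGN and LA arms for 7 of the 9 pathway genes in the fit on 12 libraries (limma, adjusted p under 0.05). The difference of log2 fold changes, PGN arm minus LA arm, was 0.89 for MVD, 0.83 for HMGCS1, 0.64 for MVK, 0.58 for IDI1, 0.50 for ACAT2, 0.45 for FDFT1 and 0.44 for FDPS. All 7 differences were called under all 21 alternatives tried for them. Groups of 3 libraries are too small for a check of single libraries that stand apart.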

How the results depend on the processing

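The 7 members called in the PGN arm and the 7 called in the difference kept their calls under every alternative listed in the processing account, and no call of a member changed sign. Over the 9 members and 3 comparisons, 459 of 477 recomputed values kept their direction and side of the threshold, 11 lost a call and 7 changed sign without a call. Members called in the LA arm numbered 1 with library medians equalised, rescaled TPM, quantile normalization, constant prior variance or the replicate block, and 1 to 1 with 1 library left out, since FDFT1 lost its call. All genes called in the LA arm numbered 1610 without a filter, 1502 with the replicate block and 1428 to 1690 with 1 library left out. In the PGN arm they numbered 1384 without a filter and 1095 to 1861 with 1 library left out. With the fit on all 12 libraries the PGN arm count went up, to 3270 of 15177 tested (2285 higher, 985 lower), beside 2277 in the main fit. Same-numbered libraries did not deviate together (correlations across genes of -0.0702 to 0.0407), so the numbers were not taken as pairs, and the replicate block changed no member's call in the PGN arm or the difference.

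Uncalled estimates near 0 changed sign. In the LA arm, with library medians equalised, rescaled TPM and quantile normalization in turn, log2 fold changes were -0.026, -0.024 and -0.038 for DHCR7, -0.013, -0.010 and -0.027 for INSIG1, -0.016, -0.014 and -0.032 for SREBF2 and -0.039, -0.036 and -0.060 for ACSS2. GGPS1 had -0.0066 there with quantile normalization, and RABGGTB -0.0023 in the PGN arm with medians equalised. With 1 library left out, LA arm values ranged from -0.032 to 0.015 for HMGCS1, -0.15 to 0.028 for MVD, -0.0035 to 0.14 for GGPS1, -0.0016 to 0.053 for DHCR7, -0.049 to 0.13 for TM7SF2, -0.018 to 0.099 for INSIG1 and -0.049 to 0.071 for ACSS2. PGN arm values ranged from -0.014 to 0.20 for PMVK, -0.0045 to 0.14 for RABGGTB and -0.046 to 0.022 for PDSS1. The difference between the arms for PMVK ranged from -0.16 to 0.056.

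The depth of the libraries is unknown, and 3 libraries per group limit the precision. In the PGN arm the standard errors were largest for GGPS1 and PMVK, at 0.15 and 0.12 on the log2 scale.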

Other observations

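MMAB, a cobalamin enzyme gene on the opposite strand whose exons overlap those of MVK over 306 bases, was looked at after the values were seen. It rose with RVT in the PGN arm from 54.3 ± 4.16 to 71.8 ± 4.11 TPM (n = 3 per group, log2 fold change 0.40 ± 0.071, limma adjusted p = 0.0119). In the LA arm it stood at 61.7 ± 6.39 and 67.9 ± 4.73 TPM (limma adjusted p = 0.329). The difference between the arms was 0.26 ± 0.12 for MMAB (limma adjusted p = 0.172), beside 0.64 ± 0.096 for MVK. Without knowledge of strand, reads from the shared bases cannot be told apart, and their part in the MVK values was not tested.

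SREBF1, which encodes the SREBP form tied mainly to fatty acid synthesis, was also looked at after its values were seen. It rose with RVT in the PGN arm from 94.1 ± 9.92 to 122 ± 3.10 TPM (limma adjusted p = 0.0178) and fell in the LA arm from 69.5 ± 3.89 to 59.0 ± 2.77 TPM (limma adjusted p = 0.0334, n = 3 per group). The difference between the arms was 0.61 ± 0.098 on the log2 scale (limma adjusted p = 0.00204). The SREBF1 call in the LA arm was lost without any 1 of its 6 libraries (limma adjusted p up to 0.0907), and the call in the PGN arm without PGN replicate 2 or any 1 of the PGN with RVT replicates 1, 2 and 3 (up to 0.0636). The difference was called in all 12 fits that left out 1 library (limma adjusted p up to 0.00684).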
